A study of Mus musculus with 16 samples.

Results

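The 5 genes Gpr83, Penk, Izumo1r, Ctsw and Chchd10, were followed across regulatory T cells (Treg) of the lymph node and uterus and conventional CD4 T cells of the uterus. They were chosen from 49585 genes in the count table because their mean level was higher in lymph node Treg than in uterine Treg, so that difference is a description and was not tested. The rule alone does not single them out, since 13495 of 30096 tested genes (44.8%) also had a higher mean in lymph node Treg than in non-pregnant uterine Treg. RNA was sequenced in 16 libraries, 4 in each of 4 groups, all from BALB/c mice that carry a Foxp3-IRES-GFP reporter, in which cells that express Foxp3 also make green fluorescent protein. Lymph node Treg were sorted as Foxp3+ and labelled CD25+, from the para-aortic nodes of non-pregnant mice. Pregnant uterine Treg and non-pregnant uterine Treg were Foxp3+ and labelled CD25-. Uterine CD4conv were Foxp3- CD4 cells of non-pregnant mice. For pregnancy the source labels give days 6, 7 and 8, and 3 of 4 pregnant titles a later last day. Each library of non-pregnant mice pooled cells of 20 animals, and each pregnant library pooled 3 to 8. Age is not given in the sources used here, nor whether node and uterine cells came from the same animals. Sequencing batch 2 held the node Treg with the non-pregnant uterine Treg, and batch 1 the pregnant uterine Treg with CD4conv. Differences between lymph node and uterine Treg cannot be told apart from the CD25 label, and any comparison across the batches cannot be told apart from the batch.

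Treg are CD4 T cells that depend on the transcription factor Foxp3 and restrain immune responses, and those in lymph nodes include recirculating cells while those in tissues include resident effector cells. Gpr83 encodes a G protein-coupled receptor of neurons that is also made by mouse Treg, and Penk encodes proenkephalin, the precursor that is cut into the opioid peptides Met- and Leu-enkephalin. Izumo1r encodes a GPI-anchored relative of the folate receptors, known as folate receptor 4 on T cells, where it is high on Treg and anergic cells, and as Juno on the egg, where it binds the sperm protein Izumo1. Ctsw encodes cathepsin W, a papain-like cysteine protease known from NK cells and cytotoxic CD8 T cells. Chchd10 encodes a small twin CX9C protein of the mitochondrial intermembrane space.

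All 5 are protein-coding, and all 5 passed the filter on low counts. In GRCm38, Gpr83 (ENSMUSG00000031932) lies at chr9:14860210-14870789 on the plus strand and Izumo1r (ENSMUSG00000031933) at chr9:14885814-14903949 on the minus strand. These are neighbouring protein-coding genes, 15024 bases apart, transcribed towards each other. Penk (ENSMUSG00000045573) lies at chr4:4133531-4138819 on the minus strand, Ctsw (ENSMUSG00000024910) at chr19:5465043-5468507 on the minus strand and Chchd10 (ENSMUSG00000049422) at chr10:75933130-75937747 on the plus strand.

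The 250 bases before the RefSeq start (GRCm38.p6) are shown for 3 of the 5, Gpr83, Izumo1r and Chchd10, as no such window was at hand for Penk or Ctsw. Capitals mark matches on either strand to 6 searched motifs, none of which overlap. The windows are chr9:14859960-14860209 (plus) for Gpr83, chr9:14903768-14904017 (minus) for Izumo1r and chr10:75932880-75933129 (plus) for Chchd10, each printed along its own gene. The RefSeq start of Izumo1r lies inside the gene span given above, and the marked matches of its window lie within that span.
Gpr83: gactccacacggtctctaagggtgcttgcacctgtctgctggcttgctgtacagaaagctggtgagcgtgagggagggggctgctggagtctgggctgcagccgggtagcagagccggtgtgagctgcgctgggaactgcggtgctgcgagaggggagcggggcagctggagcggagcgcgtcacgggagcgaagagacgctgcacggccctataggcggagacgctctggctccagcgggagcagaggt
Izumo1r: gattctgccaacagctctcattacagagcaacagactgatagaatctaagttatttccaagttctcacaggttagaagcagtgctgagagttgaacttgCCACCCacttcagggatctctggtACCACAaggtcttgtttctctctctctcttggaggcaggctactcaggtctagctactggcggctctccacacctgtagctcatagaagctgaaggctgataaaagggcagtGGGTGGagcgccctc
Chchd10: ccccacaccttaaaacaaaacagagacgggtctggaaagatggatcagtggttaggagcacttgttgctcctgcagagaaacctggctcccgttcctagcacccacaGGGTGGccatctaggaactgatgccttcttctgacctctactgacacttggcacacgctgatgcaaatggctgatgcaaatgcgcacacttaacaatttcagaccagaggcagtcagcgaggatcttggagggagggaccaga
The Gpr83 window had 66.8% G and C and 18 CpG pairs. The Izumo1r window had 50% G and C and 2 CpG pairs, and the Chchd10 window 52.4% and 5. Over 32851 windows of this length the median was 52.4% G and C (5th to 95th percentile 34.8% to 73.6%) and 6 CpG pairs. The KLF motif CCACCC was in the Izumo1r window, at 151 to 146 and, on the other strand, 15 to 10 bases before the start, and in the Chchd10 window on the other strand at 143 to 138. It was found in 28.1% of all windows. The RUNX motif TGTGGT was in the Izumo1r window on the other strand at 127 to 122 and in 14.0% of all windows. TATAAA, the forkhead motif TGTTTAC, the TCF and LEF motif CTTTGAT and the ETS motif CAGGAAG matched none of the 3 windows and 12.4%, 3.17%, 3.21% and 10.8% of all windows.

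The libraries held between 1718558 and 15190212 counts, with 1718558 to 6298500 in lymph node Treg. Each level is a CPM value, the counts of a gene per 1e6 counts in its library. Every library also held reads in 1429 olfactory and vomeronasal receptor genes, which T cells are not known to use, and these set a background per kilobase of exon. Spread evenly over all exons, such reads would take between 8.68% and 53.5% of a library's counts. This share was over 30% in 5 of 16 libraries: lymph node Treg replicate 3, pregnant uterine Treg replicates 2 and 4, and non-pregnant uterine Treg replicates 3 and 5. Foxp3 averaged 559 ± 182 CPM in lymph node Treg, 475 ± 318 in pregnant uterine Treg, 417 ± 210 in non-pregnant uterine Treg and 1.85 ± 1.52 in CD4conv (SD, n = 4 each), in the order of the sort labels. Il2ra, which encodes CD25, averaged 295 ± 62.1 CPM in lymph node Treg, 125 ± 47.9 in pregnant uterine Treg, 96.1 ± 30.6 in non-pregnant uterine Treg and 23.2 ± 4.38 in CD4conv. The summed NK and CD8 markers and the summed macrophage and dendritic cell markers were highest in CD4conv, where 12 NK and CD8 genes came to 724 to 2016 CPM and 12 macrophage and dendritic cell genes to 2154 to 21046 CPM. The T cell genes Cd3d, Cd3e and Cd3g had their lowest means in CD4conv. Cd3e averaged 366 ± 146 CPM there and 662 ± 395 CPM in pregnant uterine Treg. Cd4 lay the other way, at 452 ± 195 and 378 ± 275 CPM. The part of this in the differences below was not tested.

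Gpr83 was read at 295, 204, 136 and 183 CPM in the lymph node Treg libraries (replicates 1, 2, 3 and 5). Pregnant uterine Treg had 48.9, 44.9, 63.3 and 57.9 CPM (replicates 1 to 4) and non-pregnant uterine Treg 57.3, 19.6, 26.7 and 28.2 CPM. CD4conv had 17.4, 1.14, 9.45 and 28.0 CPM. All 4 lymph node libraries were above the other 12 (so for 0.329% of tested genes), the 2 uterine Treg groups overlapped, and the non-pregnant Treg also overlapped CD4conv. The receptor averaged 204 ± 66.9 CPM in lymph node Treg, against 33.0 ± 16.7 CPM in non-pregnant uterine Treg (SD, n = 4 each), a log2 fold change of 2.90 ± 0.67 (SE). Gpr83 was the longest of the 5 in exons and so had the highest expected background: its CD4conv levels were 0.295 to 3.14 times the level expected from background alone, and those of non-pregnant uterine Treg 1.92 to 8.29 times, against 8.55 to 78.0 times in lymph node Treg.

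Penk had 113, 115, 102 and 95.6 CPM in lymph node Treg. It had 6.94, 16.7, 15.1 and 10.9 CPM in pregnant uterine Treg and 14.5, 13.7, 10.6 and 35.6 CPM in non-pregnant uterine Treg. CD4conv had 5.47, 3.17, 2.31 and 7.69 CPM. The lymph node libraries lay close together and well above all 12 uterine ones. The opioid precursor averaged 106 ± 9.19 CPM in lymph node Treg, against 18.6 ± 11.5 CPM in non-pregnant uterine Treg, a log2 fold change of 2.80 ± 0.54. The coefficient of variation in lymph node Treg was 8.65% for Penk and 32.7% for Gpr83. Pregnant uterine Treg, with a mean of 12.4 ± 4.39 CPM, overlapped non-pregnant uterine Treg and CD4conv, and the level in CD4conv was 1.16 to 2.69 times the expected background.

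Izumo1r had the highest levels of the 5, with 842, 474, 424 and 433 CPM in lymph node Treg. Pregnant uterine Treg had 199, 142, 169 and 41.4 CPM, and non-pregnant uterine Treg had 354, 203, 180.0 and 111 CPM. CD4conv had 54.3, 37.3, 14.1 and 36.5 CPM. The lymph node libraries were again above all others, and pregnant replicate 4, the library with the highest background share, fell within the CD4conv range. The mean was 543 ± 201 CPM in lymph node Treg, against 212 ± 103 CPM in non-pregnant uterine Treg, the smallest of the 5 fold changes at 1.56 ± 0.69 on the log2 scale. Per kilobase of exon, Izumo1r stood at 234 CPM in lymph node Treg, against 65.1 for Penk, 65.0 for Ctsw, 46.3 for Chchd10 and 40.1 for Gpr83.

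Ctsw had 144, 121, 104 and 123 CPM in lymph node Treg. Pregnant uterine Treg had 29.2, 6.48, 26.0 and 7.83 CPM and non-pregnant uterine Treg 40.3, 55.0, 15.3 and 32.2 CPM. CD4conv had 124, 98.5, 76.5 and 113 CPM. Here the lymph node Treg were above all uterine Treg but overlapped CD4conv, so Ctsw was highest in lymph node Treg by its mean alone, 123 ± 16.5 CPM in lymph node Treg, against 103 ± 20.4 CPM in CD4conv. The protease averaged 35.7 ± 16.6 CPM in non-pregnant uterine Treg, and the log2 fold change of lymph node over these was 1.85 ± 0.67. In pregnant replicates 2 and 4 the level was 1.21 and 0.961 times the expected background, while in pregnant replicates 1 and 3 it was 19.4 and 19.7 times.

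Chchd10 had 119, 67.7, 51.2 and 53.8 CPM in lymph node Treg. Pregnant uterine Treg had 23.8, 18.0, 22.8 and 14.3 CPM, non-pregnant uterine Treg 6.02, 15.9, 11.0 and 26.7 CPM, and CD4conv 17.8, 9.10, 10.3 and 11.6 CPM. The lymph node libraries were above the other 12, and the 3 uterine groups overlapped one another. The mitochondrial gene averaged 73.0 ± 31.7 CPM in lymph node Treg, against 14.9 ± 8.84 CPM in non-pregnant uterine Treg, a log2 fold change of 2.66 ± 0.62.

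**Figure D1:**
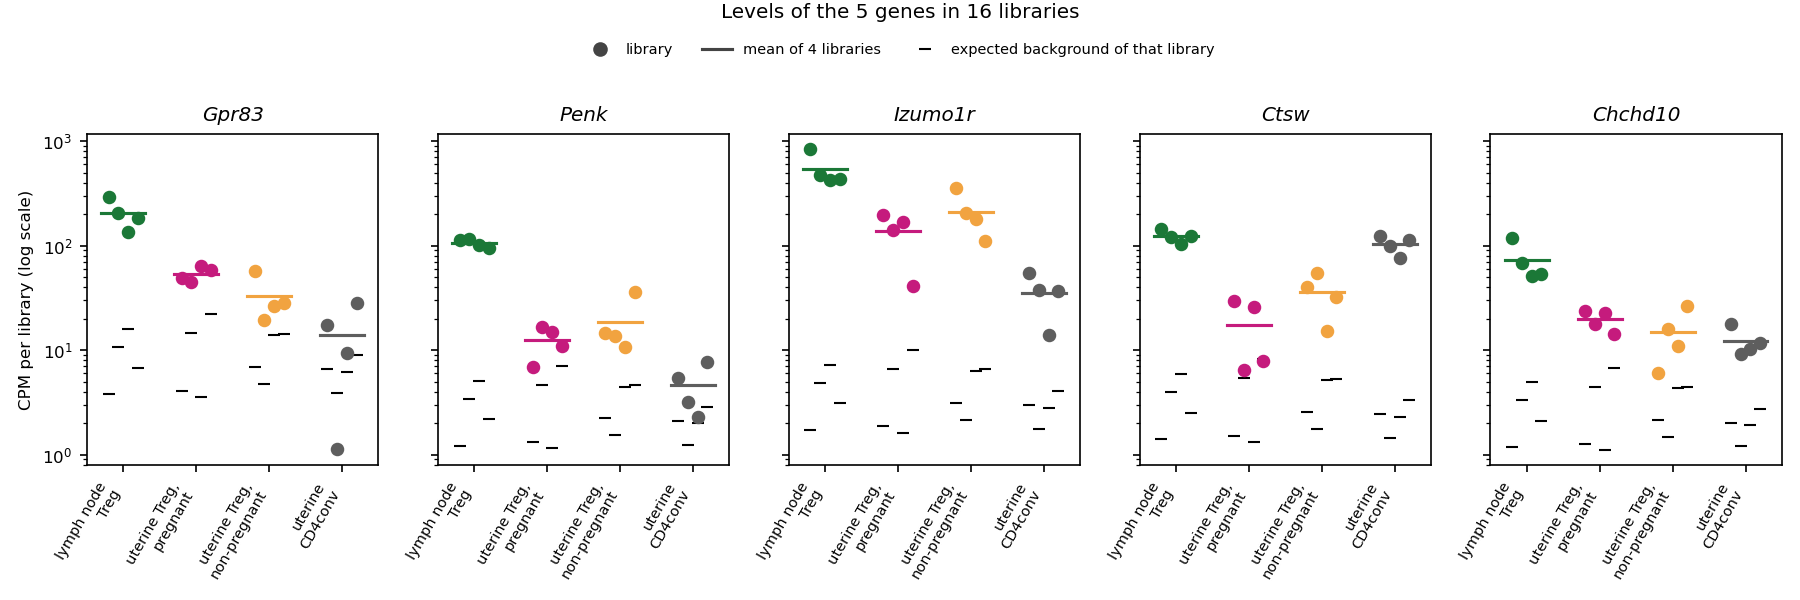
CPM of each of the 5 genes (log axis) in 16 libraries by group; points are libraries, horizontal lines are means of 4 and short black dashes the background expected in that library. Lymph node Treg sit at the top in all 5 panels, at 51.2 to 842 CPM, and only Ctsw has CD4conv points within the lymph node range of its own panel.

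For all 5 genes the 4 lymph node Treg libraries lay above the 4 non-pregnant uterine Treg libraries, which was so for 2.18% of tested genes; since this contrast chose the genes, the count is a description. All 5 were also above the 4 pregnant uterine Treg libraries (2.66% of tested genes), with log2 fold changes of 2.08 for Gpr83, 3.21 for Penk, 2.02 for Izumo1r, 2.67 for Ctsw and 2.01 for Chchd10. Against CD4conv, 4 of the 5 did not overlap (2.8% of tested genes), at 4.09 for Gpr83, 4.48 for Penk, 3.92 for Izumo1r and 2.63 for Chchd10, while Ctsw overlapped at 0.18. These 3 comparisons share the lymph node libraries. Beside them, the 12 NK and CD8 markers summed to 104 to 140.0 CPM in lymph node Treg, 165 to 253 CPM in pregnant uterine Treg and 83.1 to 134 CPM in non-pregnant uterine Treg. The 12 macrophage and dendritic cell markers summed to 112 to 169 CPM in lymph node Treg, 157 to 470.4 CPM in pregnant uterine Treg and 276 to 1273 CPM in non-pregnant uterine Treg. Sums of 8 B cell markers were 51.8 to 169 CPM in lymph node Treg, 30.3 to 164 CPM in pregnant uterine Treg and 44.3 to 181 CPM in non-pregnant uterine Treg. Sums of 13 stroma markers were 42.9 to 213 CPM in lymph node Treg. They were 92.4 to 409 CPM in pregnant and 43.1 to 1075 CPM in non-pregnant uterine Treg. Of these 13, Hoxa11 alone was at 0 in all 4 lymph node libraries. In the same order of groups, 5 epithelium markers summed to 18.1 to 56.4, 22.1 to 169.6 and 19.9 to 664 CPM. Sums of 5 endothelium markers were 109 to 266, 267 to 372 and 154 to 366 CPM. Those of 5 smooth muscle markers were 7.46 to 78.0, 34.8 to 105 and 5.34 to 93.5 CPM. The part of such cells in the differences was not tested. In 16 libraries of sorted cells, fewer cells that make a transcript and less of it per cell cannot be told apart. Pregnant and non-pregnant uterine Treg overlapped for 5 of 5 genes (of all tested genes, 0.532% were wholly above and 0.498% wholly below), with log2 fold changes of 0.83 for Gpr83, -0.41 for Penk, -0.46 for Izumo1r, -0.82 for Ctsw and 0.66 for Chchd10, each with an SE of 0.51 to 0.67. Among 4747 protein-coding genes with a mean of 50 CPM or more in at least one of lymph node and non-pregnant uterine Treg, the lymph node over non-pregnant fold change ranked 4 for Gpr83, 5 for Penk, 7 for Chchd10, 29 for Ctsw and 52 for Izumo1r. Over all 30096 tested genes the ranks were 224, 263, 314, 875 and 1343, in the same order. This contrast chose the genes, so the ranks too are a description.

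Pregnant uterine Treg against uterine CD4conv compares no library of the lymph node or the non-pregnant uterine Treg. The filter, the scaling and the spread of the fit were still taken from all 16 libraries. The comparison sets Foxp3+ cells of pregnant mice beside Foxp3- cells of non-pregnant mice. Foxp3 status and pregnancy cannot be told apart in it. The libraries compared are independent of the choice of genes only if that choice was made on non-pregnant uterine Treg, which the rule does not state. With the edgeR quasi-likelihood test over all 30096 tested genes, 0 of the 5 passed an adjusted p of 0.05, against a background of 0.0332% of genes called higher and 0.399% called lower. At an unadjusted p under 0.05, 3 of the 5 were higher and 1 was lower, against 1.09% and 3.7% of all tested genes. In an edgeR fit of the 2 groups alone, 0 of the 5 passed. The adjusted p there was 0.353 for Ctsw, 0.671 for Gpr83 and 0.804 for Izumo1r, and of 29435 genes 2 were called higher and 76 lower. DESeq2 on all 16 libraries called Gpr83 higher and Ctsw lower, against 0.186% and 0.91% of genes. Restricted to the 4720 protein-coding genes above background, by their mean over all 16 libraries, the edgeR test also gave Gpr83, Penk, Izumo1r and Ctsw an adjusted p under 0.05, against 4.11% of genes called higher and 4.28% called lower. Gpr83 and Penk were in that set only through lymph node Treg: over the 12 uterine libraries they stood at 3.68 and 4.06 times background, under the multiple of 5 that the filter asks. Izumo1r stood there at 30.9 times, Ctsw at 15.4 times and Chchd10 at 5.53 times. With the filter taken over the 12 uterine libraries, a choice made after seeing the data, 4706 genes were tested, 4.12% were called higher and 4.55% lower, and the calls among the 3 genes that entered were Izumo1r and Ctsw.

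Ctsw was lower in pregnant uterine Treg, at 17.4 ± 11.9 CPM, against 103 ± 20.4 CPM in CD4conv (SD, n = 4 each), in the fit over genes above background, and no library of one group reached the other (3.05% of all tested genes had pregnant uterine Treg below CD4conv in this way). Its log2 fold change was -2.48 ± 0.35 (SE) with an edgeR adjusted p of 0.000241 over genes above background, and -2.49 ± 0.68 with an adjusted p of 0.162 over all genes. Over genes above background, the call was kept in 8 of 8 fits that left out 1 library. Without the libraries of high background it was -2.03 ± 0.29 (adjusted p = 0.00183) over genes above background, and -1.78 ± 0.44 (adjusted p = 0.0791) over all genes, where it was not called. With the filter over the uterine libraries it was -2.48 ± 0.35 (adjusted p = 0.000251). Of the 12 NK and CD8 markers, 3 had a higher mean in pregnant uterine Treg than in CD4conv, the sums were 165 to 253 CPM in pregnant uterine Treg and 724 to 2016 CPM in CD4conv, and none of the 12 was at 0 in all libraries of either group. The largest part of the CD4conv sum was a single gene, Tyrobp. The macrophage and dendritic cell marker sums were also highest in CD4conv, and which cells gave the Tyrobp reads was not tested. Tyrobp averaged 5.37 ± 3.09 CPM in pregnant uterine Treg and 774 ± 418 CPM in CD4conv (edgeR adjusted p = 0.00024 over all genes). Cd8b1, a chain of the CD8 coreceptor, averaged 15.4 ± 7.70 CPM in pregnant uterine Treg and 250.1 ± 87.7 CPM in CD4conv (edgeR adjusted p = 0.000421), and Klrd1, the NK receptor chain CD94, 3.18 ± 3.52 and 51.1 ± 18.1 CPM in the same order (adjusted p = 0.0145). Gzmb, the cytotoxic granule protease granzyme B, lay the other way, at 114 ± 36.3 CPM in pregnant uterine Treg and 24.1 ± 13.7 CPM in CD4conv (log2 fold change 2.35 ± 0.67, adjusted p = 0.212 over all genes, and 2.46 ± 0.60, adjusted p = 0.0169, over genes above background). The part of such cells in the Ctsw difference was not tested.

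Izumo1r was higher in pregnant uterine Treg in the fit over genes above background, at 138 ± 68.3 CPM, against 35.6 ± 16.5 CPM in CD4conv, although the groups overlapped. Its log2 fold change was 2.07 ± 0.38 with an edgeR adjusted p of 0.00193 over genes above background and 1.91 ± 0.69 with 0.585 over all genes. Over genes above background, the call was kept in 8 of 8 fits that left out 1 library. With the filter over the uterine libraries it was 2.06 ± 0.38 (adjusted p = 0.00208). Without the libraries of high background it passed over all genes too (2.48 ± 0.48, adjusted p = 0.0170).

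Gpr83 averaged 53.8 ± 8.37 CPM in pregnant uterine Treg and 14.0 ± 11.5 CPM in CD4conv, and the groups did not overlap (1.31% of all tested genes had pregnant uterine Treg above CD4conv). The log2 fold change was 2.01 ± 0.65 over all genes (edgeR adjusted p = 0.378), and the gene did not pass. It was 2.29 ± 0.59 (adjusted p = 0.0221) over genes above background, a set that Gpr83 entered through lymph node Treg. That value was not under 0.05 without pregnant replicate 4 or without CD4conv replicate 3, where the adjusted p reached 0.0645, nor without the high-background libraries (1.92 ± 0.74, adjusted p = 0.164). Penk averaged 12.4 ± 4.39 CPM in pregnant uterine Treg and 4.66 ± 2.42 CPM in CD4conv, with a log2 fold change of 1.27 ± 0.52 (adjusted p = 0.807) over all genes, and did not pass. It was 1.72 ± 0.51 (adjusted p = 0.0427) over genes above background, which Penk too entered through lymph node Treg. That value stayed under 0.05 in 2 of 8 fits that left out 1 library, those without pregnant replicate 1 and without CD4conv replicate 5, and the adjusted p reached 0.114; without the high-background libraries it was 1.13 ± 0.46 (adjusted p = 0.187). Chchd10, at 19.7 ± 4.44 CPM in pregnant uterine Treg and 12.2 ± 3.89 CPM in CD4conv, did not pass in either fit (log2 fold change 0.63 ± 0.58 with an adjusted p of 1.00 over all genes, and 0.92 ± 0.45 with 0.224 over genes above background).

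**Figure D2:**
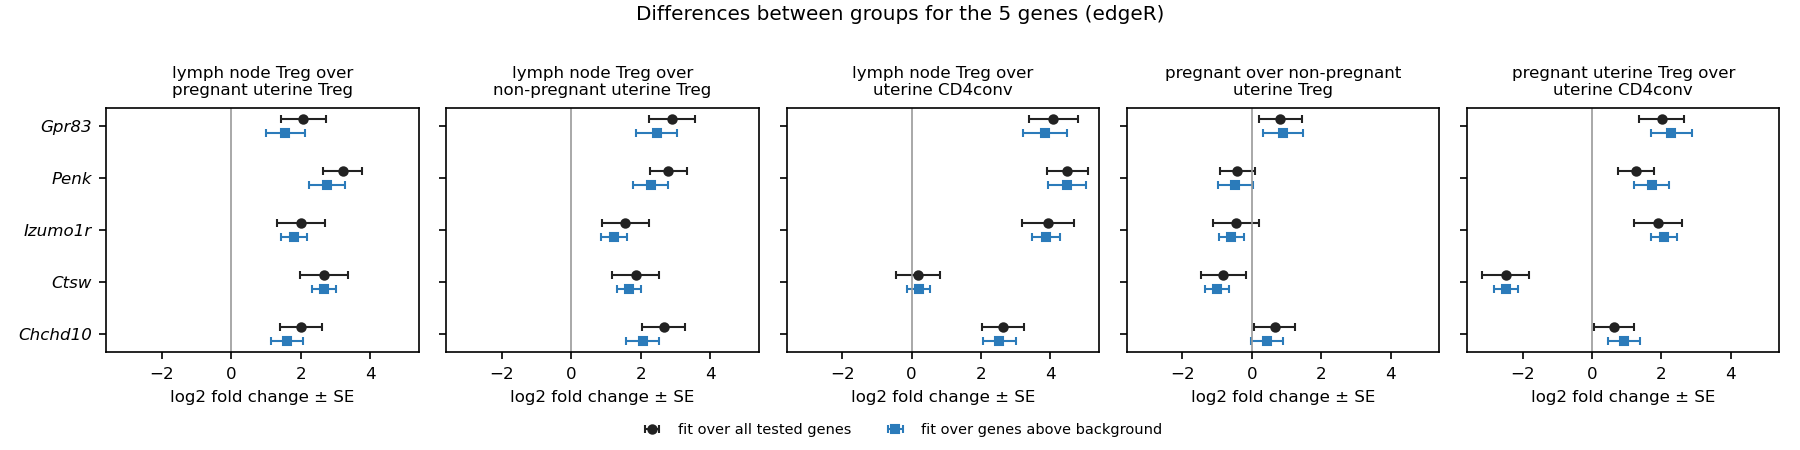
log2 fold change ± SE of the 5 genes in 5 comparisons from edgeR, over all tested genes (black) and over genes above background (blue), a set that Gpr83 and Penk entered through lymph node Treg; a positive value is higher in the group named first. Gpr83, Penk, Izumo1r and Chchd10 lie to the right of 0 in the 3 lymph node panels, and Ctsw lies near 0 against CD4conv and at -2.49 for pregnant uterine Treg over CD4conv.

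Non-pregnant uterine Treg shared the direction of the pregnant ones against CD4conv for 4 of the 5 genes and did not overlap CD4conv for 3. Penk and Izumo1r were above in every library (1.68% of tested genes), with log2 fold changes of 1.69 and 2.37, and Ctsw was below in every library (2.65% of tested genes) at -1.67. Gpr83 stood at 1.19, and Chchd10 at -0.03 over all genes and 0.48 over genes above background, both overlapping. These values use a group that chose the genes and are a description, and they share the CD4conv libraries with the preceding comparison.

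The partners of Gpr83 and Penk in peptide signalling were mostly low. Pcsk1n, which encodes proSAAS, the precursor of peptides proposed as ligands of GPR83 and GPR171, averaged 0.185 CPM in lymph node Treg and at most 0.548 CPM in any group, under its expected background. Pomc, the precursor of beta-endorphin, averaged 1.26 CPM in lymph node Treg, also under background, and neither passed the filter on low counts. Oprd1, the delta opioid receptor that enkephalins bind, averaged 0.860 ± 1.06 CPM in lymph node Treg, where 7.33 CPM was expected from background. Oprm1, the mu receptor, averaged 40.9 ± 28.7 CPM in lymph node Treg, against 37.6 ± 25.5 CPM in non-pregnant uterine Treg, with about 14.7 and 15.7 CPM expected from background. The kappa and nociceptin receptors and the other opioid precursors did not pass the test either: Oprk1 averaged 5.92 CPM in lymph node Treg, against 22.8 CPM in non-pregnant uterine Treg, Oprl1 13.5 and 10.5 CPM, Pdyn 3.73 and 0.522 CPM and Pnoc 1.54 and 6.81 CPM, in that order of groups. Pcsk1, a protease that cuts such precursors, averaged 8.21 and 7.93 CPM. From the same list, 3 more are named here after the values were seen. In lymph node Treg, Pcsk2 averaged 6.62 CPM, where 14.4 CPM was expected from background. Cpe averaged 18.4 ± 7.17 CPM there (4.76 expected), against 21.7 ± 24.5 CPM in non-pregnant uterine Treg. Furin averaged 41.3 ± 9.17 CPM (16.7 expected), against 63.9 ± 33.4 CPM, in the same order of groups. Gpr171 was read at 25.5 ± 6.86 CPM in lymph node Treg, against 22.2 ± 18.6 CPM in non-pregnant uterine Treg. It was read at 54.9 ± 18.2 CPM in pregnant uterine Treg and 136 ± 40.1 CPM in CD4conv (log2 fold change -1.48 ± 0.60, edgeR adjusted p = 0.794). Of the 13 tested genes of this list without Gpr83 and Penk, 6 had a positive lymph node over non-pregnant fold change, the median was -0.58 against 0.06 over all tested genes, and 0 passed.

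The relatives of Izumo1r gave no call. The folate receptor genes Folr1 and Folr2 averaged 8.83 ± 6.09 and 3.89 ± 2.89 CPM in lymph node Treg, against 6.35 ± 7.38 and 0.973 ± 1.13 CPM in non-pregnant uterine Treg. Of 18 tested genes for folate receptors, Izumo proteins, folate transport and one-carbon enzymes, 15 had a positive lymph node over non-pregnant fold change (median 0.62, against 0.06 over all tested genes), and 0 passed. Over the 4 of them above background, 2 were positive, with a median of 0.08 against -0.05. In pregnant uterine Treg over CD4conv, 9 of the 18 were positive, with a median of -0.01 against 0.07, and 0 passed.

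The relatives of Chchd10 gave no call either. Chchd2, its closest relative, averaged 167 ± 43.8 CPM in lymph node Treg, against 102 ± 40.5 CPM in non-pregnant uterine Treg (log2 fold change 0.83 ± 0.64, edgeR adjusted p = 1.00). Of 16 tested twin CX9C and MICOS genes, which include copper chaperones and the complex that shapes mitochondrial cristae, 13 were positive (median 0.45, against 0.06 over all tested genes). Over the 9 above background, 3 were positive and the median was -0.03 against -0.05. Against CD4conv, none of the 16 had a positive fold change in pregnant uterine Treg (median -0.66, against 0.07), 0 of 16 passed, and 4 of 9 above background were positive (median -0.07, against 0.03).

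Among the cathepsins, lysosomal proteases abundant in phagocytes, and their inhibitors, Ctsw was not alone in being lower in pregnant uterine Treg than in CD4conv. Of the 17 tested without Ctsw, 3 fell and none rose over all genes, and the median log2 fold change was -1.77, against 0.07 over all tested genes. Ctsh, an aminopeptidase, averaged 15.9 ± 6.44 CPM in pregnant uterine Treg and 563 ± 260.2 CPM in CD4conv (log2 fold change -5.60 ± 0.66, adjusted p = 7.44e-05). Ctsl, an endopeptidase of lysosomes, averaged 47.4 ± 28.7 CPM in pregnant uterine Treg and 629 ± 213 CPM in CD4conv (-3.75 ± 0.73, adjusted p = 0.0106), and was not called without pregnant replicate 2 (adjusted p = 0.0557). Cst3, the secreted inhibitor cystatin C, averaged 102 ± 59.7 CPM in pregnant uterine Treg and 1122 ± 941 CPM in CD4conv (-3.71 ± 0.85, adjusted p = 0.0463), and was called in 2 of 8 fits that left out 1 library, those without CD4conv replicate 1 and without CD4conv replicate 5. With the replicate numbers as a block over all genes, Cst3 was not called (-3.19 ± 0.84, adjusted p = 0.154), while Ctsh and Ctsl were. Over genes above background 9 of 14 fell, among them Ctsz, at 55.6 ± 42.4 CPM in pregnant uterine Treg and 475 ± 255 CPM in CD4conv (-3.14 ± 0.69, adjusted p = 0.0104). Beside these, 0 of the 12 macrophage and dendritic cell markers had a higher mean in pregnant uterine Treg, the sums were 157 to 470.4 CPM in pregnant uterine Treg and 2154 to 21046 CPM in CD4conv, and none of the markers was at 0 throughout either group; their part in these differences was not tested.

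Between lymph node and non-pregnant uterine Treg the cathepsin list showed no call: 7 of 17 were positive, with a median of -0.19 against 0.06 over all tested genes. Ctsf, the nearest relative of Ctsw, averaged 7.47 ± 2.29 CPM in lymph node Treg, where 9.19 CPM was expected from background, and 14.6 ± 11.1 CPM in non-pregnant uterine Treg. Ctsl averaged 40.7 ± 5.49 CPM in lymph node Treg, against 30.8 ± 27.9 CPM in non-pregnant uterine Treg. Cst7, the inhibitor cystatin F of cytotoxic and myeloid cells, averaged 58.6 ± 13.1 CPM in lymph node Treg, against 18.3 ± 11.4 CPM in non-pregnant uterine Treg. Its libraries did not overlap, yet its log2 fold change of 1.72 ± 0.64 had an adjusted p of 1.00 over all genes and 0.354 over genes above background.

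Of 12 genes of lymphoid homing and resting Treg, 10 had a positive lymph node over non-pregnant fold change (median 0.46, against 0.06 over all tested genes), and 0 passed over all genes, where 0 of 30096 genes (0%) were called by edgeR in either direction (509 and 396 at an unadjusted p under 0.05, higher and lower; DESeq2 called 18 and 12). Over genes above background, where 0.36% of genes were called higher and 0.932% lower, only Ccr7 passed. The chemokine receptor of node entry averaged 2835 ± 1385 CPM in lymph node Treg, against 798 ± 278 CPM in non-pregnant uterine Treg, a log2 fold change of 1.69 ± 0.37 (adjusted p = 0.0308). The call was kept in 1 of 8 fits that left out 1 library, that without lymph node replicate 1, and the adjusted p reached 0.130. In pregnant uterine Treg over CD4conv, 0 of these 12 passed over all genes. Over genes above background Foxo1, a transcription factor of quiescent T cells, was higher at 662 ± 205 CPM in pregnant uterine Treg, against 263 ± 109 CPM in CD4conv (1.56 ± 0.28, adjusted p = 0.00153), and Bcl2, a survival factor, was lower at 84.8 ± 24.5 CPM, against 256 ± 81.9 CPM in CD4conv (-1.31 ± 0.31, adjusted p = 0.0120).

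**Figure D3:**
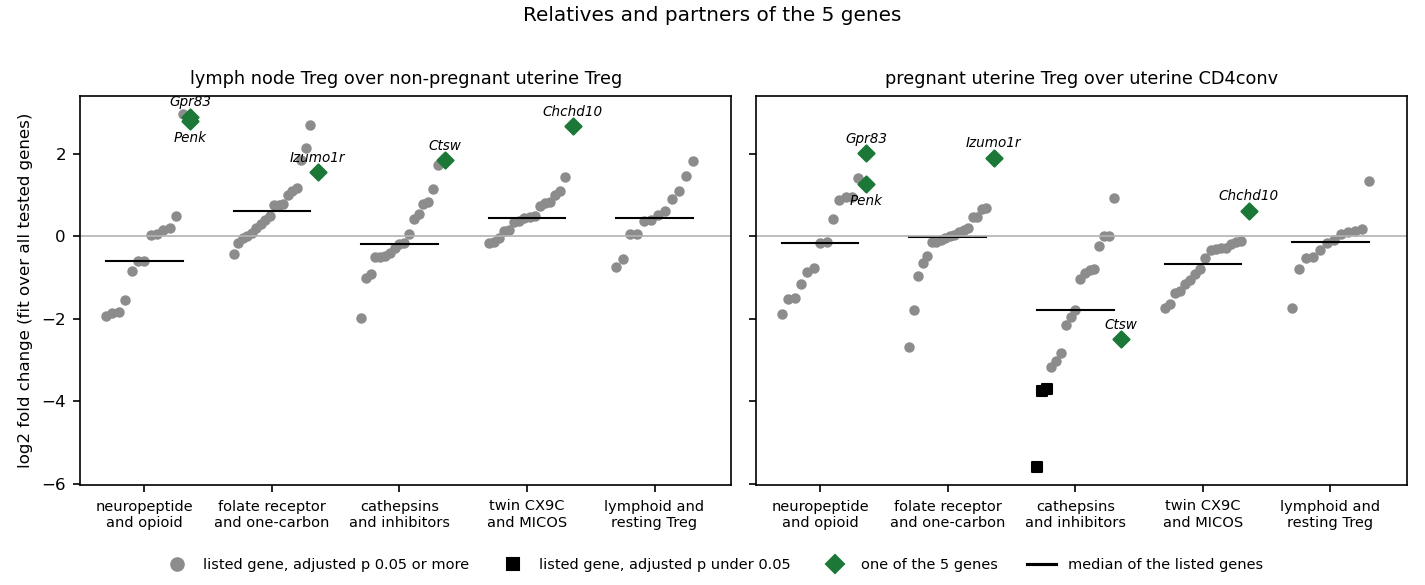
log2 fold change from edgeR over all tested genes for genes of 5 lists (grey, or black squares where the adjusted p is under 0.05), with the list median as a line and the 5 genes as green diamonds. The 3 genes that passed are Ctsh, Ctsl and Cst3 in pregnant uterine Treg over CD4conv, while Gpr83, Penk and Chchd10 lie at 2.66 to 2.90 in lymph node over non-pregnant uterine Treg.

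Neither of the protein-coding genes on the outer sides of the Gpr83 and Izumo1r pair, named here for their position after the values were seen, passed in lymph node over non-pregnant uterine Treg. Mre11a, a DNA repair nuclease on the far side of Gpr83, averaged 39.0 ± 16.0 CPM in lymph node Treg, against 42.3 ± 18.8 CPM in non-pregnant uterine Treg (log2 fold change 0.12 ± 0.54, edgeR adjusted p = 1.00). Panx1, a channel protein on the far side of Izumo1r, averaged 77.9 ± 8.76 CPM in lymph node Treg, against 80.5 ± 35.1 CPM in non-pregnant uterine Treg (0.05 ± 0.53, adjusted p = 1.00). The kits do not mark the strand, so reads where genes overlap cannot be told apart. Penk shares 233 exonic bases with the non-coding A830012C17Rik, which averaged 1.35 CPM in lymph node Treg. Chchd10 shares 155 with the metalloprotease gene Mmp11, at 3.83 CPM in lymph node Treg, against 2.63 CPM in non-pregnant uterine Treg. Ctsw shares 9 bases with Fibp, which encodes a binding partner of fibroblast growth factor and averaged 61.9 ± 10.1 CPM in lymph node Treg, against 39.8 ± 16.1 CPM in non-pregnant uterine Treg (log2 fold change 0.82 ± 0.57, adjusted p = 1.00).

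Among the 5 genes, 4 followed one another across the 16 libraries and Ctsw did not, as the levels above already show. Pearson's r of log2 CPM was 0.83 for Gpr83 with Penk, 0.84 for Penk with Izumo1r, 0.82 for Penk with Chchd10, 0.77 for Gpr83 with Izumo1r, and 0.71 for Chchd10 with both Gpr83 and Izumo1r. For Ctsw it was 0.14 with Gpr83, 0.32 with Penk, 0.31 with Izumo1r and 0.54 with Chchd10. The libraries share groups, depth and background, so these values describe the 16 libraries and have no p. Among 14745 protein-coding genes at 5 CPM or more, the 5 most like Gpr83 were Igsf23 (0.91), Kdm5b (0.91), Frzb (0.88), Ebi3 (0.88) and Ankrd55 (0.87). Of these, Igsf23, Frzb, Ebi3 and Ankrd55 were not above background. The 5 most like Penk were Ccr8 (0.92), Ntn4 (0.92), Frzb (0.85), Izumo1r (0.84) and Klc3 (0.84), of which Ntn4, Frzb and Klc3 were not above background. Ccr8, a chemokine receptor found on Treg, averaged 113 ± 28.0 CPM in lymph node Treg, 18.5 ± 6.56 in pregnant uterine Treg, 24.0 ± 6.23 in non-pregnant uterine Treg and 12.5 ± 8.26 in CD4conv, and was also among the 5 most like Chchd10 (0.86), after Znrf1 (0.88), Rasa2 (0.87), Chd3 (0.87) and Il16 (0.86). Rasa2 was not above background.

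Izumo1r was most like Tnfrsf18 (0.94), Tnfrsf4 (0.94), Tnfrsf9 (0.92), Cd27 (0.92) and Il2ra (0.91), the first 4 of which encode receptors of the TNF receptor superfamily. Tnfrsf4, also called OX40, averaged 627 ± 70.4 CPM in lymph node Treg, 198 ± 126 in pregnant uterine Treg, 291 ± 74.3 in non-pregnant uterine Treg and 90.6 ± 29.4 in CD4conv. Ctsw was most like Tbc1d4 (0.96), Hmgn1 (0.94), Rrp9 (0.94), Gar1 (0.93) and Tnfsf8 (0.92). Tbc1d4, a regulator of glucose transporter traffic, averaged 192 ± 35.9 CPM in lymph node Treg, 52.4 ± 24.4 in pregnant uterine Treg, 71.0 ± 13.4 in non-pregnant uterine Treg and 121 ± 31.3 in CD4conv, thus high in the same 2 groups as Ctsw.

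**Figure D4:**
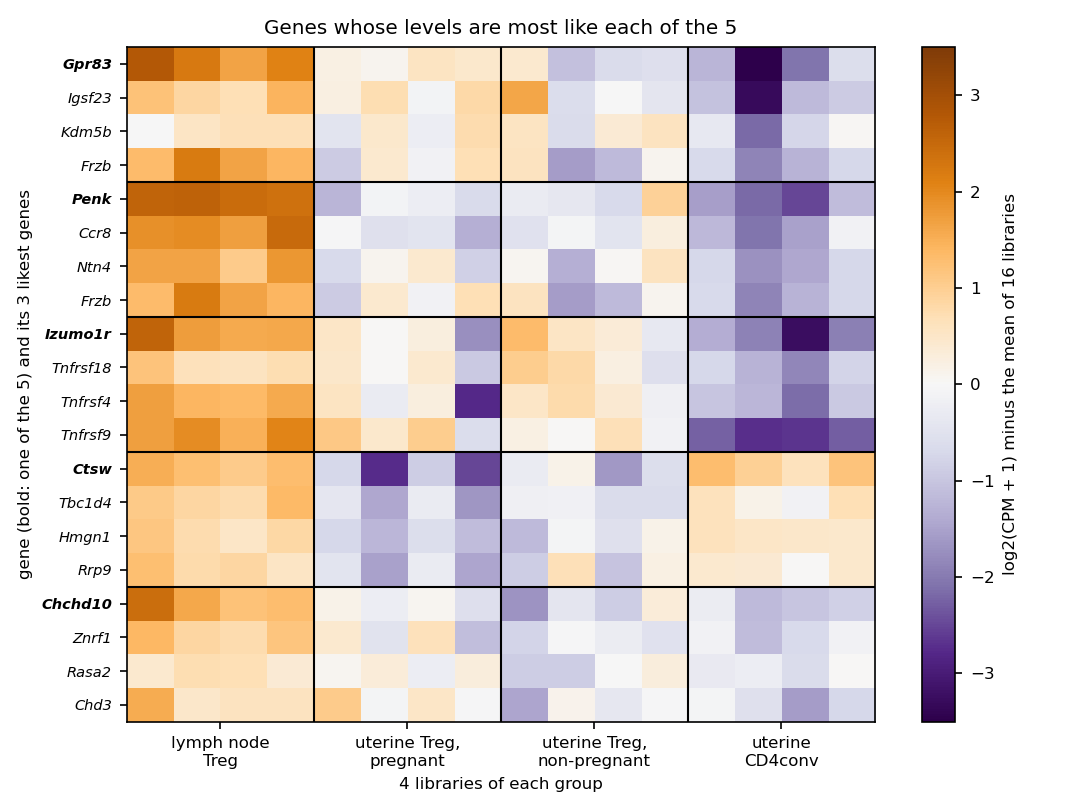
Heat map of log2(CPM + 1) minus the gene's mean over 16 libraries, for each of the 5 genes (bold) and the 3 genes most like it, with 4 libraries a group from left to right. The lymph node columns are orange, or near white for Kdm5b, in every block, and the CD4conv columns are mostly orange in the Ctsw block and mostly purple in the others.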

How the data were processed

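RNA of sorted T cell pools was measured in 16 libraries. Per the labels' protocols, cDNA was made with SMART-Seq v4 and libraries with Nextera XT, which do not mark strand, and sequenced in paired reads on a NextSeq 500. The submitters' processing notes list HISAT2, featureCounts, SAMtools, Trimmomatic and DESeq2 with the GRCm38 build, and their versions are not given in the sources used. The deposited tables hold raw counts of reads per gene, with no normalization by the authors, and the 16 files of single libraries were identical to the table of the series. GENCODE M21 named 49326 of 49585 identifiers; promoter windows come from RefSeq (GRCm38.p6).

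The 5 genes and the gene lists were chosen with earlier results of these data known. Groups came from the labels. CPM uses the library total. Differences were fitted to the counts with edgeR 4.0.16 in R 4.3.3 (robust quasi-likelihood test on all 16 libraries after filterByExpr and TMM scaling, 12 residual degrees of freedom), with Benjamini-Hochberg adjustment over 30096 genes and a threshold of 0.05. SE is the absolute log2 fold change over the square root of F. Genes above background are the 4720 protein-coding genes whose mean share over all 16 libraries is over 5 times that expected from receptor reads per exonic base. The square root of the common dispersion was 0.812 over all genes and 0.431 over genes above background. DESeq2 1.42.0, other scalings and filters, fits of 2 groups, a replicate block and leaving out libraries were alternatives, and the fits were tested on simulated data. Correlations used log2 CPM with a prior count of 2.

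Replicate numbers recur across groups. Deviations of same-numbered pregnant uterine Treg and CD4conv libraries correlated at 0.118, 0.121 and 0.107. These pools came from pregnant and from non-pregnant mice, so a shared number is not a shared animal. Libraries of different numbers were not compared, so these values do not show pairing. The main fit had no block, and the replicate block was run as an alternative. Lymph node and non-pregnant uterine Treg gave 0.143, -0.252, 0.343 and -0.0815 and were not taken as pairs.

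Named genes are the 5, of each list those past the threshold with 5 CPM or more in the higher group (the 4 with the largest change where more passed), a set of nearest relatives, and the 5 genes most like each by correlation. CD4conv libraries differ from the others in marker genes of other cells, and p-values measure the spread between pools.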

Additional observations from a re-analysis of the deposited data

Results flagged for a closer look

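In 20 groups of 4 libraries (5 genes in 4 groups), 2 values stood far from the other 3 of their group, where chance flags about 1 in 20. Penk was read at 35.6 CPM in non-pregnant uterine Treg replicate 5, against 10.6 to 14.5 CPM in the other 3, with a gap of 0.844 of the group's range. Izumo1r was read at 842 CPM in lymph node Treg replicate 1, against 424 to 474 CPM in the other 3, with a gap of 0.881 of the range.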

How the results depend on the processing

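The log2 ratio of mean CPM, lymph node over non-pregnant uterine Treg, stayed positive for all 5 genes under 11 alternatives each (other scalings, background subtracted, each library left out), with ranges of 2.40 to 3.08 for Gpr83, 2.32 to 3.04 for Penk, 1.06 to 1.72 for Izumo1r, 1.53 to 2.07 for Ctsw and 1.95 to 2.73 for Chchd10. Over genes above background, Chchd10 in non-pregnant uterine Treg over CD4conv stood at 0.48 against -0.03 over all genes, and the median of the twin CX9C and MICOS list in lymph node over non-pregnant uterine Treg at -0.03 against 0.45. Neither the ratios above nor the 5 genes' fold changes in pregnant uterine Treg against CD4conv changed direction in the alternatives run. In pregnant uterine Treg against CD4conv, 0 of the 5 genes were called over all genes; library totals as the only scaling called 1 (Ctsw, adjusted p = 0.00855), DESeq2 2 (Ctsw, 0.00314, and Gpr83, 0.0499), genes above background 4, the same with the replicate block 4, genes above background over the uterine libraries 2 of the 3 that entered, all genes without the high-background libraries 1, and genes above background without them 2. Leaving out 1 library each gave 0 over all genes and 2 to 4 over genes above background. Of all 4720 genes above background, these last fits called 115 to 215 higher and 122 to 256 lower. The fit of these 4720 without the high-background libraries called 154 higher and 111 lower, and that with the replicate block 208 and 157. Among the calls over genes above background, those of Gpr83 and Penk rest on a set that they entered only through lymph node Treg. For the other genes of the lists of relatives and of resting Treg in that comparison, 0 were called higher and 3 lower. These and the following counts leave out the cell type markers. Over all genes, 3 Treg markers were called higher, and 3 NK and CD8 and 5 macrophage and dendritic cell markers lower. Genes above background gave 1 higher and 10 lower, with the filter over the uterine libraries 1 and 10, with the replicate block 1 and 9, and without high-background libraries 1 and 7; all genes without these libraries gave 1 higher. Library totals gave 8 lower, DESeq2 8, the 2 groups alone 1, and the 2 groups alone with the replicate block 1. Leaving out 1 library each gave 0 to 1 higher and 1 to 11 lower. Between lymph node and non-pregnant uterine Treg, genes above background gave 1 gene of these lists higher instead of 0, and 1 with the replicate block. Leaving out 1 library each gave 0 to 1 higher and 0 to 1 lower. Among the markers, Il2ra was called higher and Tyrobp lower over genes above background. Over all tested genes, calls in pregnant uterine Treg against CD4conv were 10 higher and 120 lower in the edgeR test, 194 and 202 over genes above background, 56 and 274 with DESeq2, 29 and 119 with library totals, and 125 and 105 without the high-background libraries. The median fold change of all genes there was 0.07 on the log2 scale, 0.35 with library totals and 0.20 with DESeq2. The replicate block changed no call of the 5 genes and left 2 genes of these lists lower over all genes, without Cst3. For lymph node against non-pregnant uterine Treg it left 0 calls over all genes. The cause of these changes was not tested. The background reads and the depth of 1718558 to 15190212 counts limit what can be seen of genes near 10 CPM. The settings without high-background libraries, the filter over the uterine libraries, those that combine genes above background with another change, and the block in 2 groups alone were chosen after seeing the data.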
